A study of Mus musculus with 6 samples.

Results

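The genes described here encode enzymes that feed, run and branch from the tricarboxylic acid (TCA) cycle in mitochondria, together with those of ketone body oxidation, of branched-chain amino acid breakdown and of the muscle creatine kinases. They are 40 named genes of 19938 measured, listed by gene symbol with earlier results of these data known. Each is represented by its probe with the highest mean over the arrays. Their transcript levels were compared between hearts of 3 wild-type mice and hearts of 3 mice with a Cenpf knockout, all untreated and 12 months old, on Affymetrix arrays with 1 array per heart. Replicates are labelled as biological. The labels do not give the strain, the sex, the deleted part of Cenpf, or whether the knockout was of the whole body or of heart muscle alone.

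Heart muscle draws most of its energy from the oxidation of fatty acids, with glucose, lactate, ketone bodies and branched-chain amino acids as further fuels. All of these enter the TCA cycle as acetyl-CoA or as one of its intermediates, and the reducing power made there drives the respiratory chain. Pyruvate, alpha-ketoglutarate and the branched-chain ketoacids are each decarboxylated by a large complex of the same design, and all of these complexes share the subunit encoded by Dld. Phosphorylation switches off the pyruvate and the branched-chain complex, through the kinases of the Pdk family and through Bckdk, and phosphatases such as the one encoded by Ppm1k switch them on again.

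The levels of 38 of the 40 genes differed by less than 0.25 on the log2 scale between knockout and wild-type hearts, and 2 stood apart. Bdh1, the dehydrogenase that oxidises beta-hydroxybutyrate, was 0.69 higher in knockout hearts, with a standard error of 0.25. Bckdhb, a subunit of the branched-chain ketoacid dehydrogenase, was 0.61 lower (fitted difference -0.61, standard error 0.17). Neither passed the threshold of an adjusted p under 0.05 (limma, adjusted p = 0.464 for Bdh1 and 0.391 for Bckdhb). Of the 40 genes 0 passed it, beside 0.0275% of all probes tested. At an unadjusted p under 0.05 there were 2, these same genes, or 5% of the 40, where 9.90% of all probes had such a p.

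Promoter sequence of the 2 genes is shown because the largest differences were theirs. Each window is the 250 bases before the most upstream start site listed by RefSeq (GRCm38.p6), on the plus strand. Capitals mark matches to 5 short motifs searched on both strands, namely the ERR element TNAAGGTCA, the CCAAT box CCAAT, the GC box GGGCGG, the E-box CACGTG and the TATA box TATAAA.
Bdh1, chr16:31422047-31422296: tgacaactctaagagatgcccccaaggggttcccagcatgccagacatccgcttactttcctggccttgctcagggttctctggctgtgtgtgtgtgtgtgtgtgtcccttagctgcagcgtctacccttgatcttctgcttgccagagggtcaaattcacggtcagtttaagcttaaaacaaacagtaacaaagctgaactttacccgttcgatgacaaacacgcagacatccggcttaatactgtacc
Bckdhb, chr9:83924887-83925136: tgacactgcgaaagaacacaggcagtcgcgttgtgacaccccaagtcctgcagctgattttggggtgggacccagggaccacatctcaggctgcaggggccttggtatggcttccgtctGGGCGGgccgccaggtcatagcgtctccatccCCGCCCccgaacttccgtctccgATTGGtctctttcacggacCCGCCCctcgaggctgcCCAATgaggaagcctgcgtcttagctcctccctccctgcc

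Counting from the start site, the Bckdhb window held 3 GC box matches, at -131 to -126, -99 to -94 and -57 to -52, and 2 CCAAT matches, at -76 to -72 and -40 to -36. No motif of the 5 was found in the Bdh1 window. Its bases were 49.6% G or C, those of the Bckdhb window 63.2%, and those of all promoter windows 53.2%. RefSeq lists a further start site for each of these genes, which is not shown. Promoters were found for 37 of the 40 genes. Over all their start sites, 21 of these genes (56.8%) had a CCAAT match, where 37.5% of all 27025 genes in the table did, and 20 (54.1%) had a GC box, where 35.4% of all genes did. E-box matches were found for 3, namely Ogdh, Pcx and Mccc2 (8.11%, against 6.86% of all genes), and TATA box matches for Got2 and Bckdk (5.41%, against 14.3%). The ERR element was found for 0 of the 37, where 1.30% of all genes had it. These are matches of letters only.

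The samples were checked before the members were compared. Cenpf, measured by 1 probe, read 8.75, 8.54 and 8.04 in wild-type and 6.35, 6.10 and 6.68 in knockout hearts (limma, adjusted p = 0.0286), near the background level of 6.35, which is the 95th percentile of olfactory and vomeronasal receptor probes. All 12 ventricular cardiomyocyte markers lay above that level, and the tissue label was borne out by Myh6 at 13.53 and 13.59 in wild-type and knockout hearts. Wild-type replicate 3 resembled the knockout hearts more than its own group over all probes, with correlations of 0.983 to 0.985 with knockout and of 0.980 and 0.981 with wild-type hearts. Knockout replicate 1 stood apart in another way. It gave the lowest of the 6 values for 26 of the 40 genes, where it was lowest for 17.9% of all genes. The differences of Bdh1, Bckdhb and several other members that turned on either heart are given with and without it. Every value of the 40 genes lay above the background level, the lowest being 8.28, a value of Pcx.

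**Figure D1:**
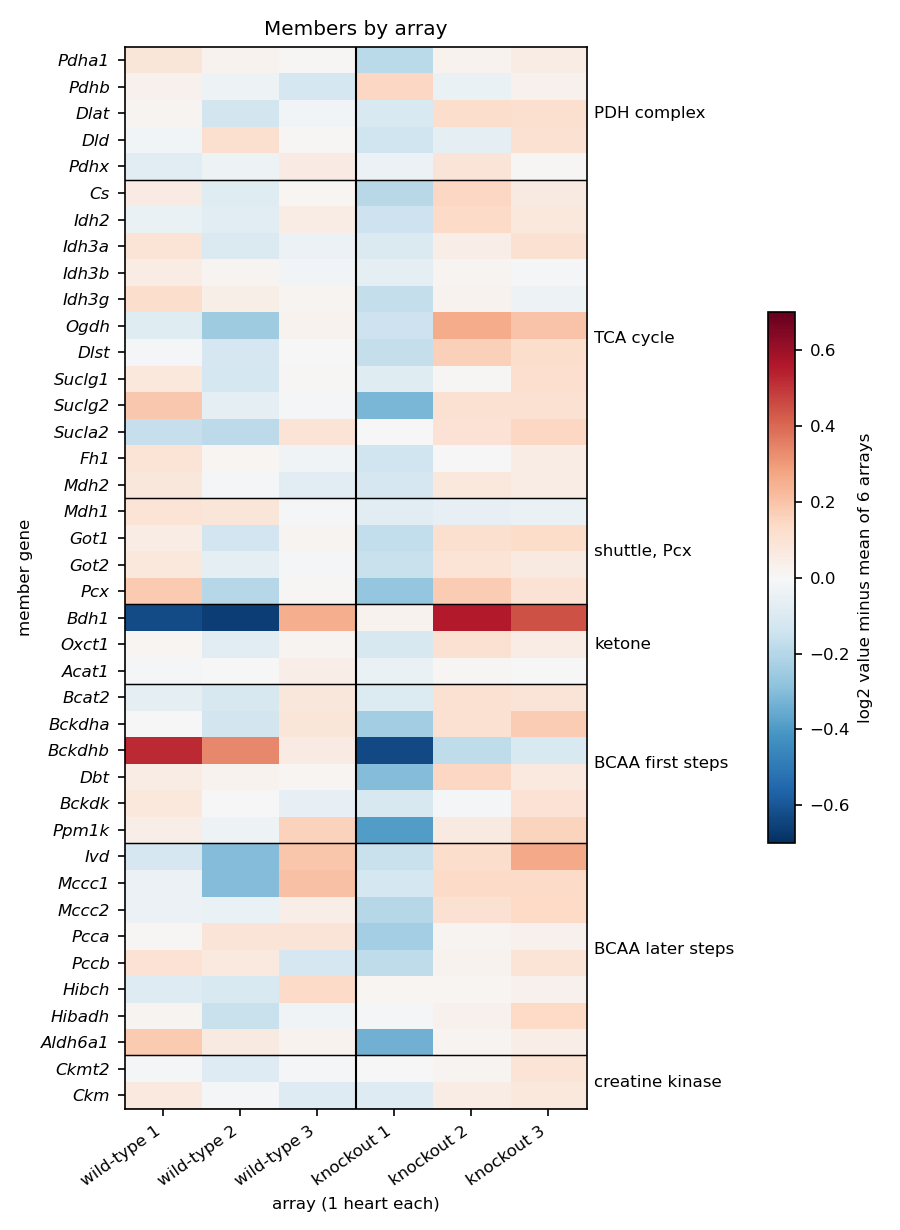
Log2 value of each of the 40 genes in each heart, minus that gene's mean over the 6 arrays, with genes in rows grouped by role and hearts in columns (PDH, pyruvate dehydrogenase; BCAA, branched-chain amino acid). Bdh1 and Bckdhb carry the deepest colours, and the column of knockout replicate 1 is blue for most genes, 36 of the 40 lying below their own mean there.

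The pyruvate dehydrogenase complex commits pyruvate to acetyl-CoA and so links glycolysis to the cycle. Of its 5 genes 3 were higher and 2 lower in knockout hearts (48.4% of all genes higher). Of the 5, 0 passed the test (0.0275% of all probes), and the median difference was 0.036. Pdha1, the catalytic alpha subunit that carries the regulatory phosphorylation sites, read 12.56, 12.50 and 12.48 in wild-type hearts and 12.28, 12.50 and 12.52 in knockout hearts. The low value was that of knockout replicate 1, and the other knockout values lay among the wild-type values. Its difference was -0.077, with a 95% interval from -0.31 to 0.16 (limma, adjusted p = 0.822), and -0.0014 without knockout replicate 1. Pdhb, its partner subunit, read 11.11, 11.04 and 10.95 in wild-type and 11.22, 11.03 and 11.11 in knockout hearts. Here knockout replicate 1 was the highest of all 6, and the groups overlapped with a difference of 0.087 (limma, adjusted p = 0.791). Dlat, the acetyltransferase core, read 11.54, 11.39 and 11.50 in wild-type and 11.41, 11.64 and 11.63 in knockout hearts, a difference of 0.084 (limma, adjusted p = 0.811). Its knockout replicates 2 and 3 lay above all wild-type hearts and replicate 1 did not. Dld, the shared dihydrolipoamide dehydrogenase, differed by -0.067, or by -0.013 without knockout replicate 1, and Pdhx, which anchors that enzyme to the core, by 0.036.

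Of the 12 enzymes and subunits of the TCA cycle itself 8 were higher and 4 lower in knockout hearts, 0 passed the test and in 0 the groups were separate. Over all genes 48.4% were higher and 14.8% had separate groups, and 0.0275% of probes passed. The median difference of the 12 was 0.019 and the range ran from -0.12 for Idh3g to 0.21 for Ogdh. Cs, citrate synthase, which makes the entry reaction and is often used as a measure of mitochondrial content, read 13.02, 12.88 and 12.98 in wild-type and 12.77, 13.11 and 13.03 in knockout hearts. The difference was 0.010, with a 95% interval from -0.26 to 0.28. The lowest and the highest of the 6 values were both knockout hearts, and the sign of the difference changed when a heart was left out, with values from -0.061 to 0.11. Idh2, the mitochondrial isocitrate dehydrogenase that makes NADPH, read 12.76, 12.73 and 12.86 in wild-type and 12.67, 12.94 and 12.88 in knockout hearts, a difference of 0.045 (interval -0.20 to 0.29).

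The largest differences of the cycle were those of Ogdh and Sucla2. Ogdh, the catalytic subunit of alpha-ketoglutarate dehydrogenase, read 12.73, 12.57 and 12.84 in wild-type and 12.67, 13.08 and 13.02 in knockout hearts. Knockout replicates 2 and 3 lay above every wild-type heart while replicate 1 lay among them. The difference was 0.21 (limma, adjusted p = 0.629, interval -0.10 to 0.52). It was 0.33 without knockout replicate 1, and 0.13 without knockout replicate 2 as well as without wild-type replicate 2. Sucla2, the ADP-forming beta subunit of succinyl-CoA ligase, read 11.63, 11.61 and 11.89 in wild-type and 11.79, 11.89 and 11.94 in knockout hearts. Here it was wild-type replicate 3 that lay with the knockout hearts. Its difference was 0.16 (limma, adjusted p = 0.646), or 0.25 without that heart.

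The other subunits lay closer to zero. The 3 subunits of the NAD-dependent isocitrate dehydrogenase, a step of the cycle that calcium and ADP activate, differed by 0.032 (Idh3a), -0.035 (Idh3b) and -0.12 (Idh3g). Without knockout replicate 1 the difference of Idh3g was -0.068. Dlst, the succinyltransferase core of the alpha-ketoglutarate complex, differed by 0.080 and Suclg1, the alpha subunit of succinyl-CoA ligase, by 0.029. Suclg2, the GDP-forming partner of Suclg1, differed by -0.073. Fh1, fumarase, differed by -0.056 and Mdh2, the mitochondrial malate dehydrogenase, by 0.0090. Of the 40 genes the probes of Suclg2 and Got2 were those whose 20 neighbours in probe order included 0 genes from the chromosome of the named gene, so these probes may lie at another locus with similar sequence. A further probe of each had 20 and 19 such neighbours and differed by -0.071 for Suclg2 and by 0.0069 for Got2, close to the differences of the chosen probes. For the other 38 genes at least 10 of the 20 neighbours came from the right chromosome.

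The malate-aspartate shuttle carries reducing equivalents from the cytosol into mitochondria through paired malate dehydrogenases and aspartate aminotransferases. Mdh1, the cytosolic malate dehydrogenase, read 13.30, 13.29 and 13.20 in wild-type and 13.14, 13.15 and 13.16 in knockout hearts. All 3 knockout values lay below all wild-type values, with little room between the groups. Its difference of -0.12 had a standard error of 0.090 and did not pass (limma, adjusted p = 0.686). With array medians subtracted the groups of Mdh1 overlapped. Got1, the cytosolic aminotransferase, read 13.28, 13.10 and 13.25 in wild-type and 13.06, 13.34 and 13.36 in knockout hearts, a difference of 0.044 in which knockout replicate 1 was again lowest. Got2, the mitochondrial aminotransferase, differed by 0.0040. Pcx, pyruvate carboxylase, which refills the cycle with oxaloacetate, differed by 0.0029 and kept the widest 95% interval of this group, from -0.34 to 0.35.

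Ketone bodies taken up from blood are oxidised in 3 mitochondrial steps, made by Bdh1, Oxct1 and Acat1. Bdh1 read 10.10, 10.06 and 10.98 in wild-type and 10.75, 11.28 and 11.17 in knockout hearts. Wild-type replicates 1 and 2 were low, while wild-type replicate 3 lay above knockout replicate 1, so the groups overlapped. The group means were 10.38 ± 0.52 and 11.07 ± 0.28 (SD, n = 3), and the 95% interval of the difference ran from 0.11 to 1.27. By exact permutation of the group labels over the 6 hearts the two-sided p was 0.2, and no such p can fall below 0.1 in this design.

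The value of Bdh1 turned on wild-type replicate 3. Without it the difference was 0.99 and passed the test (limma, adjusted p = 0.0474), in a fit in which 1.34% of genes passed. This heart was singled out for its likeness to the knockout hearts and held the highest wild-type value of Bdh1. The pass therefore follows in part from the choice of heart. The difference of Bdh1 stayed positive without each of the other hearts in turn, between 0.53 (wild-type replicate 2 left out) and 0.84 (knockout replicate 1 left out), with adjusted p from 0.403 to 0.839. Marker lists of other cells also differed between the hearts. The summed level of the 6 atrial markers, of which Sln and Bmp10 lay below background in both groups, was 12.33, 12.32 and 12.98 in wild-type and 13.49, 12.78 and 13.06 in knockout hearts. Nppa weighed most in that sum, at 11.63, 11.65 and 12.47 in wild-type and 13.12, 12.17 and 12.59 in knockout hearts. Of the 6 markers 5 were higher in knockout hearts and 1, Bmp10, was lower. Myl7 was highest in knockout replicate 2. The summed level of the 2 erythroid markers measured of 7 listed, Alas2 and Slc4a1, was 9.48, 9.82 and 10.26 in wild-type and 10.84, 10.57 and 10.56 in knockout hearts. Wild-type replicate 3 was the highest of its group in the sum of each list, as for Bdh1. Knockout replicate 1 was the highest of its group in the sum of each list and the lowest for Bdh1. The part of either list in the difference of Bdh1 was not tested. In whole hearts fewer cells of a type and less RNA per cell cannot be told apart.

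The enzymes that act after Bdh1 differed by less than 0.25. Oxct1, the transferase that activates acetoacetate and whose step limits ketone use outside the liver, read 11.97, 11.88 and 11.97 in wild-type and 11.84, 12.06 and 12.00 in knockout hearts. The difference of 0.027 had a 95% interval from -0.20 to 0.26 (limma, adjusted p = 0.949). Acat1, the mitochondrial thiolase that splits acetoacetyl-CoA, read 12.26, 12.27 and 12.32 against 12.23, 12.28 and 12.28, a difference of -0.024. Within each array, the log2 value of Bdh1 minus that of Oxct1 was -1.87, -1.82 and -0.99 in wild-type and -1.09, -0.78 and -0.83 in knockout hearts. That difference was 0.66 higher in knockout hearts on average, and wild-type replicate 3 again lay among them. The pair was chosen after its values were seen and was not tested.

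**Figure D2:**
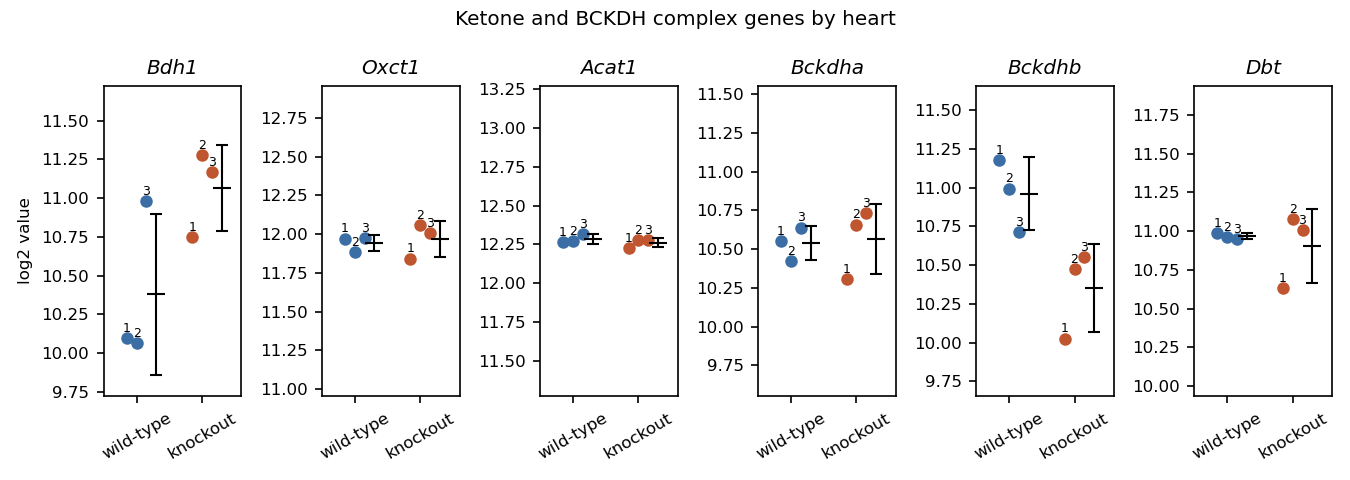
Log2 value of the 3 ketone oxidation genes and of the 3 subunits particular to the branched-chain ketoacid dehydrogenase complex, with hearts as points numbered by replicate, and bars for the mean ± SD of 3 hearts. All panels span 2 log2 units. Bdh1 and Bckdhb are displaced between the groups, with wild-type replicate 3 among the knockout hearts for Bdh1, and the groups of the other 4 genes overlap.

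Branched-chain amino acids are first transaminated by Bcat2 and then committed to oxidation by the branched-chain ketoacid dehydrogenase complex. Of the 6 genes of these steps and their control 2 were higher and 4 lower in knockout hearts (48.4% of all genes higher). Of the 6, 0 passed the test (0.0275% of all probes), and the median difference was -0.038. Bckdhb, the beta subunit of the decarboxylase, read 11.18, 10.99 and 10.71 in wild-type and 10.03, 10.48 and 10.55 in knockout hearts. All knockout values lay below all wild-type values, with wild-type replicate 3 the lowest of its group. The means were 10.96 ± 0.23 and 10.35 ± 0.28 (SD, n = 3), and the 95% interval of the difference ran from -1.0 to -0.22. The exact permutation p, two-sided, was 0.1, which is the lowest this design can reach.

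The difference of Bckdhb kept its sign without each heart in turn, between -0.73 (wild-type replicate 3 left out) and -0.45 (knockout replicate 1 left out). Over the 15 alternatives run it passed the test in 0, with adjusted p from 0.116 to 0.805. The summed level of adipocyte markers also stood higher in wild-type replicates 1 and 2. Of 8 measured 0 were higher in knockout hearts, Lep lay below background in both groups, and their summed level was 12.94, 12.58 and 12.33 in wild-type hearts and 12.27 to 12.40 in knockout hearts. Fabp4 weighed most in that sum, at 12.26, 12.15 and 12.04 in wild-type and 12.17, 12.03 and 12.14 in knockout hearts. Car3 differed most, at 10.92, 9.66 and 8.42 in wild-type and 7.72, 7.46 and 6.95 in knockout hearts. Not each marker followed the sum. Pck1 read 6.73, 6.35 and 6.77 in wild-type and 6.33, 6.53 and 6.55 in knockout hearts. The part of adipocyte markers in the difference of Bckdhb was not tested.

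The other subunits of the complex lay close to their wild-type levels. Bckdha, the alpha subunit that pairs with it and carries the regulatory phosphorylation site, read 10.55, 10.42 and 10.64 in wild-type and 10.31, 10.66 and 10.73 in knockout hearts, a difference of 0.028 (95% interval -0.28 to 0.33). Dbt, the acyltransferase core, read 10.99, 10.96 and 10.95 against 10.63, 11.08 and 11.01, a difference of -0.062 in which knockout replicate 1 alone was low. Within each array, Bckdhb minus Bckdha was 0.62, 0.57 and 0.072 in wild-type and -0.28, -0.18 and -0.18 in knockout hearts, so that every knockout heart lay below every wild-type heart. On average this within-array difference was lower in knockout hearts (difference -0.64), and for Bckdhb minus Dbt the same comparison gave -0.55. These pairs, too, were chosen after their values were seen and were not tested.

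The regulators of the complex lay near zero. Bckdk, the kinase that switches the complex off, read 10.91, 10.83 and 10.77 in wild-type and 10.72, 10.82 and 10.93 in knockout hearts, a difference of -0.015 (interval -0.24 to 0.21). Ppm1k, the mitochondrial phosphatase that switches it on, read 10.28, 10.20 and 10.39 in wild-type and 9.85, 10.30 and 10.39 in knockout hearts. Its difference of -0.11 came with 1 low value, that of knockout replicate 1, and was 0.052 without that heart. Bcat2, the mitochondrial transaminase, differed by 0.066.

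After the complex the pathways of leucine, valine and isoleucine separate. Of the 8 genes of these later steps 5 were higher and 3 lower in knockout hearts, 0 passed the test and in 0 the groups were separate. Over all genes 48.4% were higher and 14.8% separate, and 0.0275% of probes passed. Aldh6a1, which makes propionyl-CoA from a valine product, read 11.02, 10.90 and 10.87 in wild-type and 10.50, 10.86 and 10.89 in knockout hearts. Its difference was -0.18 (limma, adjusted p = 0.656), or -0.055 without knockout replicate 1. Pcca, the biotin-carrying subunit of propionyl-CoA carboxylase, through which valine and isoleucine carbon reaches succinyl-CoA, read 10.47, 10.55 and 10.56 against 10.23, 10.48 and 10.50, a difference of -0.12 (limma, adjusted p = 0.724), or -0.037 without knockout replicate 1. Pccb, its partner, differed by -0.038. In leucine breakdown, Ivd, isovaleryl-CoA dehydrogenase, differed by 0.15, and its value ran from 0.039 without wild-type replicate 2 to 0.29 without wild-type replicate 3. It was 0.27 without knockout replicate 1 and 0.058 without knockout replicate 3. Mccc1 and Mccc2, the subunits of methylcrotonyl-CoA carboxylase, differed by 0.094 and 0.029. The valine enzymes Hibch, a hydrolase, and Hibadh, a dehydrogenase, differed by 0.041 and 0.11. A further Hibadh probe, whose means lay below the background level at 4.71 and 4.18, differed by -0.53.

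The creatine kinases pass the energy of ATP to phosphocreatine at mitochondria (Ckmt2) and return it at the myofibrils (Ckm). Ckmt2 read 12.77, 12.69 and 12.77 in wild-type and 12.78, 12.80 and 12.88 in knockout hearts. Its knockout values all lay above its wild-type values, though the gap between the groups was small beside the spread within them. The difference of 0.074 had a standard error of 0.091 and did not pass (limma, adjusted p = 0.805). With quantile normalization its groups overlapped. Ckm read 13.21, 13.14 and 13.06 in wild-type and 13.05, 13.20 and 13.22 in knockout hearts, a difference of 0.021.

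**Figure D3:**
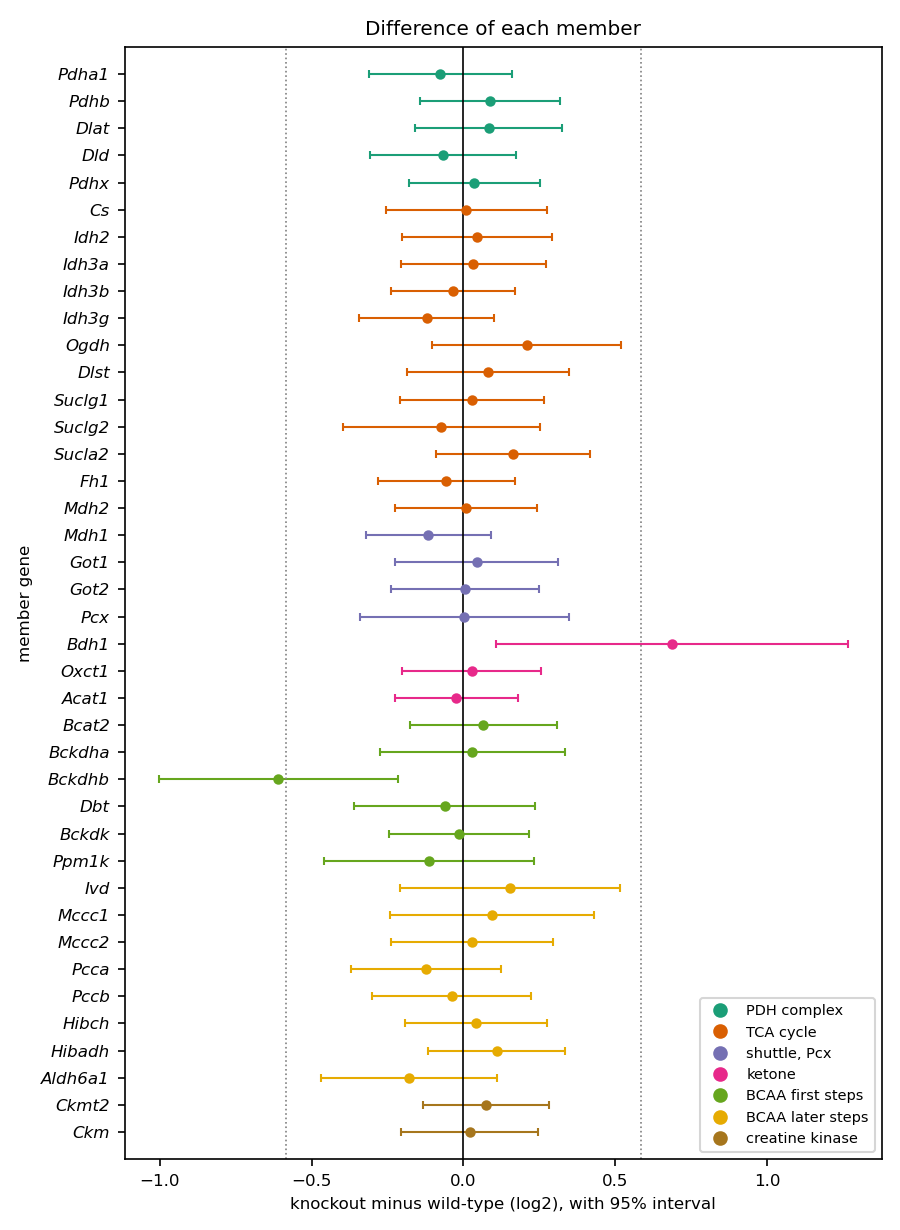
Knockout minus wild-type log2 difference of each of the 40 genes, with its 95% interval from limma, coloured by role; dotted lines mark a change of 1.5-fold. The intervals of Bdh1 and Bckdhb exclude 0 and cross a dotted line, and the other 38 include 0 and stay between the lines.

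Over all 40 genes 25 were higher and 15 lower in knockout hearts (62.5% higher, against 48.4% of all genes), and the median difference was 0.024, against -0.0060 over all genes. The count of higher genes moved with single hearts. Leaving out knockout replicate 1 gave 30, knockout replicate 2 gave 16, and knockout replicate 3 or wild-type replicate 2 gave 15. For 38 genes the unadjusted 95% interval lay inside a change of 1.5-fold in either direction. The half-widths of the intervals ran from 0.20 to 0.58, with a median of 0.24, and smaller differences than these were not resolvable with 3 hearts a group. Among the members the groups were separate for 3 genes, Mdh1, Bckdhb and Ckmt2, or 7.5%, where they were separate for 14.8% of all genes. Of these Ckmt2 was higher, as were 7.5% of all genes, and the other 2 were lower, as were 7.33%.

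Much of the spread came from knockout replicate 1. Its median deviation over the 40 genes was -0.14, against 0.069 and 0.091 in knockout replicates 2 and 3 and 0.039, -0.063 and 0.013 in the wild-type hearts, while over all genes its median deviation was 0.0016. By role, its deviation was largest for the first steps of branched-chain amino acid breakdown, at -0.27. It was -0.17 for the later steps, -0.16 for the shuttle with Pcx, -0.14 for the TCA cycle and -0.11 for the pyruvate dehydrogenase complex, and was smallest for ketone oxidation at -0.045, beside -0.047 for the creatine kinases. Without this heart the groups were separate for 17 of the 40 genes (42.5%), where 30.6% of all genes were separate. The heart was singled out for its low values in these same genes, so that count follows in part from the choice and was not tested. Of the members 0 passed the test in the fit without knockout replicate 1, beside 0.0251% of genes. Without wild-type replicate 3 the groups were separate for 8 (20%, against 33.9% of all genes), and 1, Bdh1, passed the test, beside 1.34% of genes. That heart was singled out for its likeness to the knockout hearts, so this pass, too, follows in part from the choice. Leaving out wild-type replicate 1 or 2 gave 5 and 3 separate genes, where 23.0% and 21.7% of all genes were separate, and 0 members passed in either fit, beside 0.00502% of genes in each. Leaving out knockout replicate 2 or 3 gave 5 in each case, against 23.1% and 22.4% of all genes, and 0 members passed, beside 0.015% and 0.010% of genes.

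Summed levels of macrophage and fibroblast markers were highest in the same heart. The summed level of 9 macrophage markers was 13.69 in knockout replicate 1, against 12.87 and 13.09 in the other knockout hearts and 12.97 to 13.46 in wild-type hearts. For 9 fibroblast markers it was 14.68, against 14.07 and 14.18 and against 14.21 to 14.52. All of these 18 markers lay above background, but not each followed the sum of its list. In knockout replicate 1 Cd14 read 7.51, below every wild-type heart. Cd163, Lum, Col1a1, Col1a2 and Col3a1 were each higher in some wild-type heart. The other markers of both lists were highest in knockout replicate 1. For the 12 ventricular cardiomyocyte markers the summed level was 17.07, at the low end of a range of 17.07 to 17.16 over all hearts. For 8 endothelial markers, all above background, it ran from 13.60 to 13.62 in wild-type and from 13.57 to 13.69 in knockout hearts. Single endothelial markers moved in opposite directions, 6 being higher and 2 lower in knockout hearts (48.4% of all genes higher). Their differences ran from -0.27 for Emcn to 0.43 for Kdr. The part of any of these cell types in the low values of knockout replicate 1 was not tested.

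**Figure D4:**
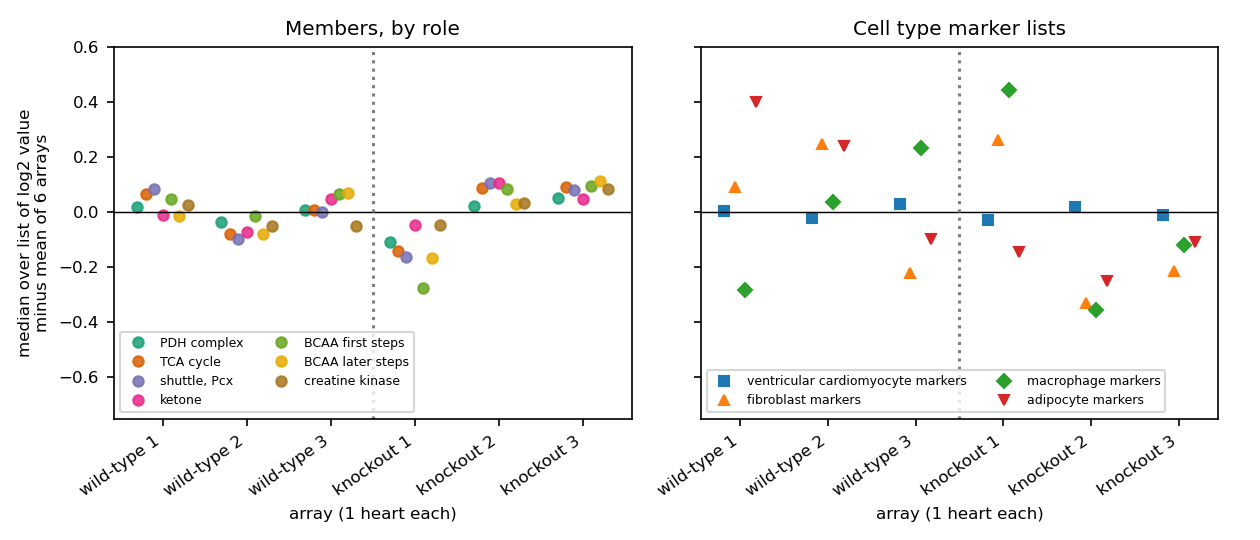
Median over each role of the 40 genes (left) and over each cell type marker list (right) of the log2 value minus the gene's mean over 6 arrays, for each heart on the horizontal axis. In knockout replicate 1 all 7 roles lie below 0, down to -0.27, while its macrophage and fibroblast markers lie above 0, at 0.44 and 0.26.

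Genes of the same pathways outside these 40 were taken from 4 lists. The lists were made with earlier results of these data known, so their shares below are descriptions and were not tested. Of their 60 genes 55 were measured by a probe with a single gene name. Of these 55 genes 0 passed the test (0.0275% of all probes) and 9 (16.4%) had an unadjusted p under 0.05 (9.90% of all probes). In direction, 30 were higher and 25 lower in knockout hearts (48.4% of all genes higher). The groups were separate for 12, or 21.8% (14.8% of all genes). Among 29 other genes of pyruvate control, the cycle and its carriers, Pdk4 and Me1 had the lowest p. Pdk4, a kinase that switches off pyruvate dehydrogenase, read 10.06, 10.15 and 11.28 in wild-type and 12.22, 11.77 and 11.87 in knockout hearts, a difference of 1.46 (limma, adjusted p = 0.297). Me1, the cytosolic malic enzyme, read 9.82, 9.72 and 10.38 in wild-type and 10.53, 10.52 and 10.54 in knockout hearts, a difference of 0.55 (limma, adjusted p = 0.408). In both, as in Bdh1, wild-type replicate 3 was the highest of its group. Without that heart both passed the test, with differences of 1.85 (limma, adjusted p = 0.00528) and 0.76 (limma, adjusted p = 0.0232). In that fit 1.34% of genes passed (267 genes), against 0.0275% of probes (6 probes) with all hearts. Both genes were named for their low p, and the heart left out held the highest wild-type value of each. Their passes therefore follow in part from the choice of genes and heart.

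Among 16 other genes of branched-chain amino acid breakdown and transport the groups were separate for 7 (43.8%, against 14.8% of all genes). Like the others, this list was made with earlier results of these data known, and its share was not tested. Of the 7 genes 3 were higher and 4 lower in knockout hearts, where 7.5% and 7.33% of all genes were separate in these directions. Of the 16 genes 0 passed the test (0.0275% of all probes). Mmaa, needed to load the vitamin B12 cofactor onto methylmalonyl-CoA mutase, read 8.70, 8.65 and 8.92 in wild-type and 9.12, 9.20 and 9.19 in knockout hearts, a difference of 0.41 (limma, adjusted p = 0.368). Auh, the hydratase of leucine breakdown, read 10.52, 10.44 and 10.66 in wild-type and 10.82, 10.98 and 10.91 in knockout hearts, a difference of 0.36 (limma, adjusted p = 0.391). The other higher gene was the amino acid transporter subunit Slc3a2, with 0.23. The 4 lower ones were the dehydrogenases Acadsb, with -0.28, and Hsd17b10, with -0.20, the epimerase Mcee, with -0.26, and the hydratase Echs1, with -0.16. These 5 fall outside the rule for named genes and were named after their values were seen. In the lists of 5 other ketone body genes and 5 other creatine genes 0 passed (0.0275% of all probes). The lowest p were those of the acetoacetate-activating enzyme Aacs and the transporter Slc16a6, with 0.097 and 0.13, and of the creatine transporter Slc6a8 and the brain-type kinase Ckb, with 0.35 and -0.15.

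**Figure D5:**
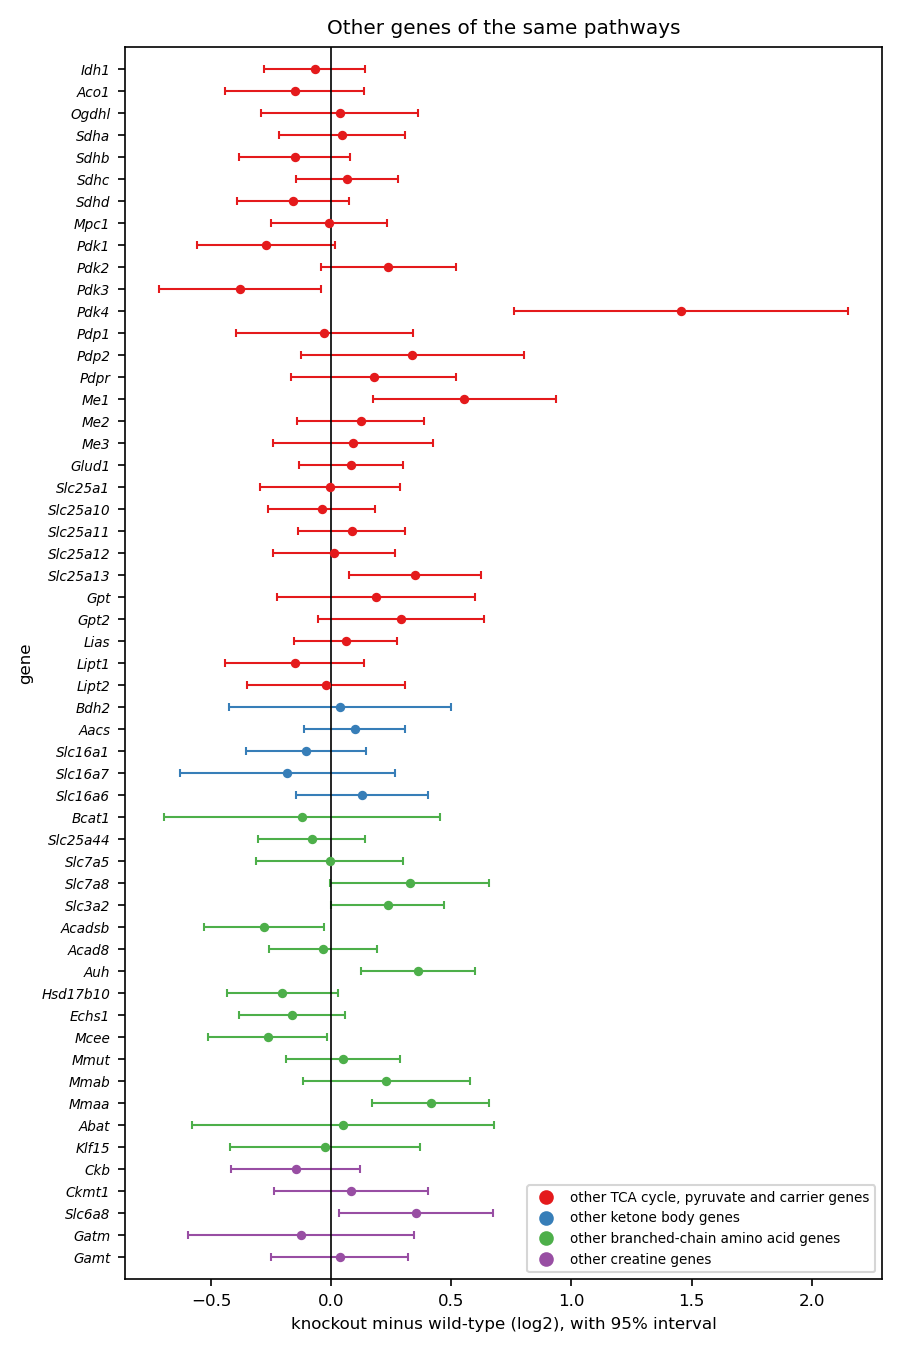
Knockout minus wild-type log2 difference, with its 95% interval from limma, of the 55 other pathway genes in the 4 lists, coloured by list. Pdk4 lies farthest from 0, at 1.46, followed by Me1 at 0.55.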

How the data were processed

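RNA from 6 hearts was hybridised to 1 array each. The values are log2 expression levels as deposited. RMA and Partek 6.6 are named, per the submitters' processing notes. Neither their settings nor a genome build is given in the sources used here. Array medians lay between 6.92 and 6.97, so no further normalization was applied.

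Probes were named from the platform annotation. Of 35556 probes 21789 had exactly 1 gene symbol, 1621 had several and 12146 were unnamed here. The 21789 stand for 19938 genes, and the Entrez identifiers of 21698 of these probes matched RefSeq (GRCm38.p6), from which promoters also came. The 40 members and all lists were chosen with earlier results of these data known. All 40 members are named. Of the other pathway lists, the 2 genes of lowest p in each are named. Further branched-chain amino acid genes with separate groups were named after their values were seen.

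Each probe was fitted by group (lmFit and eBayes of limma 3.58.1, R 4.3.3), and two-sided p-values were adjusted by Benjamini-Hochberg over 21789 probes. Differences are knockout minus wild-type. A list's level in a heart is the log2 of its summed linear values. In simulated data of 21789 probes, 200 of them changed, the test recovered 33.3%, 73.4% and 98.0% of genes changed 1.5-fold, 2-fold and 4-fold. Noise was drawn independently for each probe, so deviations shared by many genes of a heart were left out. Recovery in the real hearts can therefore differ from these shares. The number of arrays limits precision. Replicate numbers did not pair the hearts. Alternatives changed the normalization, the filter, the probes tested, the variance model, weights, a replicate block, and the hearts used. Figures used matplotlib 3.10.9.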

Additional observations from a re-analysis of the deposited data

How the results depend on the processing

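With all 6 hearts, 0 members and 0 other pathway genes passed under each of the 9 alternatives that kept every heart. Of all genes only 1 to 32 passed in these fits. Leaving out hearts gave 0 to 1 members passing and 0 to 2 other pathway genes. The higher counts came without wild-type replicate 3, which was singled out for its likeness to the knockout hearts. Of all genes 0.00502% to 1.34% passed in those fits. Leaving out hearts gave 15 to 30 members higher, where 47.5% to 50.0% of all genes were. It gave 3 to 17 members with separate groups, where 21.7% to 33.9% of all genes were separate. The median difference stayed within -0.021 to 0.077 over all alternatives. Samples with the same replicate number did not deviate together, with correlations of -0.072, -0.11 and -0.012 for numbers 1, 2 and 3. With the replicate number as a block 0 members passed, and Bdh1 and Bckdhb had adjusted p of 0.434 and 0.462.

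The sign held in all 15 alternatives for 17 members, Bdh1 and Bckdhb among them, and changed at least once for 23, whose differences were small. With array medians subtracted Bckdk was 0.0070. With quantile normalization Fh1 was 0.0010, Pcx -0.0016, Acat1 0.0091 and Bckdk 0.0026. With cyclic loess Idh3b was 0.0029, Pcx -0.0059 and Acat1 0.0043. With array weights Dbt was 0.0037, Bckdk 0.0069 and Ppm1k 0.0089. With the mean of a gene's probes Hibadh was -0.21, since a dim probe entered. The cause of the other changes was not tested.

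Leaving out 1 heart at a time gave, from lowest to highest, -0.061 to 0.11 for Cs, -0.011 to 0.13 for Idh2, -0.011 to 0.090 for Idh3a, -0.027 to 0.078 for Suclg1, -0.14 to 0.069 for Suclg2, -0.028 to 0.069 for Mdh2, -0.013 to 0.14 for Got1, -0.044 to 0.083 for Got2, -0.095 to 0.14 for Pcx and -0.019 to 0.091 for Oxct1. It gave -0.055 to 0.16 for Bckdha, -0.15 to 0.075 for Dbt, -0.069 to 0.037 for Bckdk, -0.22 to 0.052 for Ppm1k, -0.034 to 0.22 for Mccc1, -0.032 to 0.14 for Mccc2, -0.11 to 0.041 for Pccb, -0.0034 to 0.12 for Hibch and -0.018 to 0.072 for Ckm.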
